A study of Mus musculus with 7 samples.

Results

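AP-1 is a transcription factor built from pairs of basic leucine zipper (bZIP) proteins, and 10 of its genes were followed here in damaged mouse utricles with and without added Fos. The 10 genes were Fos, Fosb, Fosl1 and Fosl2 (Fos family), Jun, Junb and Jund (Jun family), and the related Atf3, Batf and Maff. They were chosen by name out of the 32285 genes in the count files, and all 10 were among the 17155 genes with enough counts to be tested. The utricle is a balance organ of the inner ear whose sensory hair cells are killed by gentamicin, an aminoglycoside antibiotic. All 7 libraries came from explanted utricles of P2 wild-type mice, grown in serum-free medium, exposed to 2 mM gentamicin for 24 h and collected 5 days after the injury, with 12 utricles pooled per library. The 4 Gent+Fos OE libraries had also received AAV-PHP.eB carrying mouse Fos behind the ubiquitous CMV promoter for 48 h, and the 3 Gent libraries are labelled with gentamicin alone. What virus, if any, the Gent utricles received is not settled. Their labels name gentamicin alone, the paper's figure legends call the comparison group a gentamicin control in some places and a control AAV group in others, and the count columns of this group carry "sh" in their names, which can be read as shRNA. Every fold change and share below rests on the labels: had these utricles received a Fos shRNA, the difference in Fos would combine knockdown and overexpression, and without a control virus it could not be told apart from virus exposure.

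Fos proteins cannot pair with themselves and act mainly as dimers with a Jun protein, whereas Jun proteins can also pair with each other. Such dimers bind the TRE, a short DNA element, and dimers with ATF proteins prefer the closely related CRE. Batf and Atf3 can take the place of Fos beside a Jun partner, while small Maf proteins such as Maff pair with each other, with Fos or with other bZIP factors. Fos, Jun and Atf3 are immediate early or stress response genes, transcribed within minutes of many stimuli. The comparison asks which of these partners differed in level when Fos was supplied, and how much of the AP-1 transcript pool Fos then made up.

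The promoters of Fos and Jun are shown because the virus carried the CMV promoter, not that of Fos, and because Jun has an AP-1 type element of its own. Each line gives the 110 bases that end just before the transcription start, from RefSeq on GRCm38.p6, the build of the counts, with the searched motif in capitals. The Fos line is chr12:85473780-85473889 on the plus strand, with the CRE core TGACG beginning 66 bases before the start. The Jun line is chr4:95052223-95052332 on the minus strand, with TGACATCA, a variant CRE, beginning 45 bases before the start.
Fos: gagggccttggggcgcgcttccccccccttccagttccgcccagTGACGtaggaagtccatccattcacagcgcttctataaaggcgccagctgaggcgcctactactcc
Jun: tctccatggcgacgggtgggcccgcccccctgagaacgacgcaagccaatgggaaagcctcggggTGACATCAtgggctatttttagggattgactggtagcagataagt
Promoter windows from 250 bases before to 50 after a start were at hand for 9 of the 10 genes, 11 windows in all, as Maff has 3 starts. Both strands were searched. The TRE written as TGANTCA was in 0 of these 11 windows and in 7.81% of all 32851 promoter windows. TGACG was in 7 of the 11 windows (Fos, Fosb, Junb, Atf3, Batf and Maff) and in 20.8% of all windows. The full CRE, TGACGTCA, which contains TGACG, was found for Maff alone among the 9 genes with a window and in 1.79% of all windows. TGACATCA was in windows of Jun and Maff and in 3.62% of all windows. A match of letters is a description of these windows and not evidence of binding.

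Fos was higher in each Gent+Fos OE library than in any Gent library. Its levels, in CPM (read counts scaled to library size after TMM normalization), were 151, 151, 167 and 149 CPM in Gent+Fos OE and 39.5, 40.6 and 34.6 CPM in Gent. The means were 154 ± 8.46 CPM (SD, n = 4) and 38.2 ± 3.18 CPM (SD, n = 3), and the ranges were far apart. By edgeR's quasi-likelihood test the log2 fold change was 2.01 (SE 0.13, 95% interval 1.74 to 2.29), a 4.04-fold difference, with a Benjamini-Hochberg adjusted p of 0.000142 over all tested genes. A gene was called here at an adjusted p under 0.01 with a log2 fold change beyond 0.25 in either direction. By that rule 0.134% of tested genes were called higher (23 of 17155) and 0.28% lower (48), and Fos was the only one of the 10 AP-1 genes called in either direction. No tested gene had a smaller p than Fos, although 106 had a larger log2 fold change. The counts fall on the exons of Fos (ENSMUSG00000021250, chr12:85473890-85477273, 2352 exonic bases) and do not separate transcripts of the virus from those of the gene itself.

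Of the other 9 genes, 2 (Fosl1 and Fosl2) had a positive and 7 a negative log2 fold change, and the median over all 10 genes was -0.08, beside -0.001 over all tested genes. Without adjustment, p was under 0.05 for 3 of the 10 genes with higher values (Fos, Fosl1 and Fosl2) and for 3 with lower values (Junb, Atf3 and Batf). Among all tested genes 11.1% had such a p with higher and 13.4% with lower values. The ranges of the groups did not overlap for 2 genes that were higher in Gent+Fos OE (Fos and Fosl2) and for 3 that were lower (Junb, Atf3 and Batf). Among all tested genes, 11.3% were apart in this way on the higher side and 12.2% on the lower side. The libraries are pools of utricles, and p-values measure the spread between these pools. In bulk tissue, fewer cells of a type and less RNA per cell cannot be told apart.

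**Figure D1:**
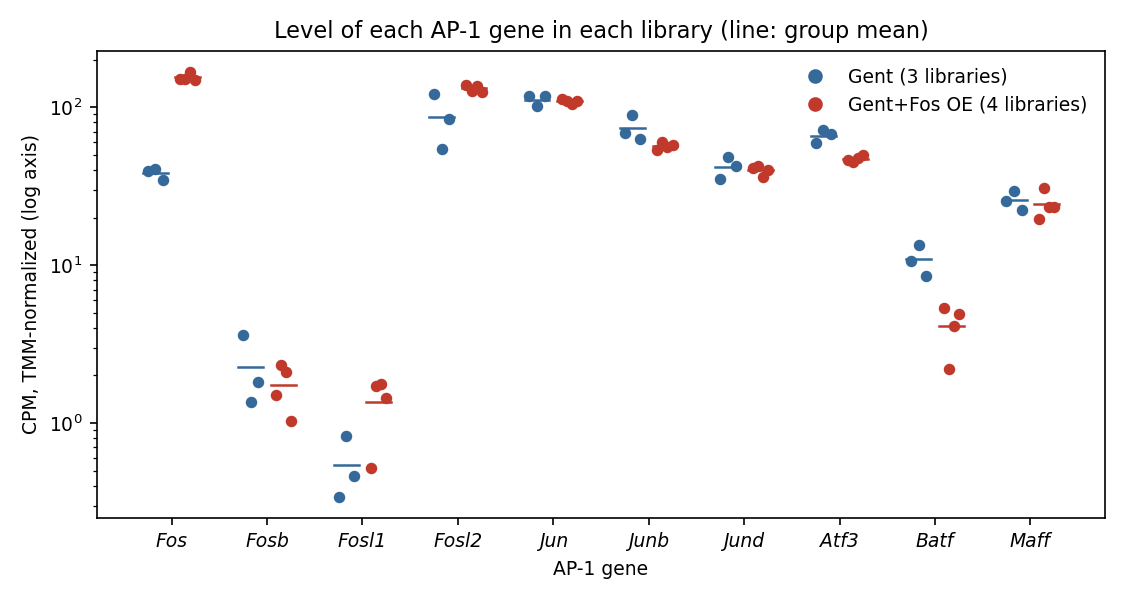
Level of the 10 AP-1 genes in each library, in TMM-normalized CPM on a log axis; each point is a library (3 Gent in blue, 4 Gent+Fos OE in red) and each line a group mean. Fos stands at 149 to 167 CPM in Gent+Fos OE against 34.6 to 40.6 CPM in Gent, Batf lies lower in all 4 Gent+Fos OE libraries, and Jun, Jund, Maff, Fosb and Fosl1 overlap.

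Among the other Fos family genes, Fosl2 was the most abundant per kb of exon length, and its higher values with added Fos did not pass the test. Fosl2 encodes Fra-2, a Fos relative with no strong activation domain that persists longer after a stimulus. It was at 139, 127, 136 and 124 CPM in Gent+Fos OE and at 122, 54.5 and 84.7 CPM in Gent. The groups were apart only narrowly, since Gent replicate 1 was just below the lowest Gent+Fos OE library and Gent replicate 2 was the lowest of all. The log2 fold change was 0.60 (SE 0.22) with an edgeR adjusted p of 0.153, which does not pass. Without Gent replicate 2 it was 0.34, and without Gent replicate 1 it was 0.92 with an edgeR adjusted p of 0.0266. Fosl2 has 9680 exonic bases, against a median of 4084 over the tested genes, and long genes were low in Gent replicate 2. In that library the rank correlation between gene length and the deviation from the mean was -0.496, against 0.153 and -0.221 in the other Gent libraries and 0.124 to 0.325 in all 4 Gent+Fos OE libraries. The length trend thus ran partly with the groups, with Gent replicate 1 inside the Gent+Fos OE range. Over all tested genes the rank correlation of the log2 fold change with exon length was 0.378. Gent replicate 2 also had the highest share of mitochondrial counts, 2.86% against 1.74% to 1.99% in the other libraries, and its part in these values was not tested. With the length trend of every library removed, the log2 fold change of Fosl2 was 0.39 with an edgeR adjusted p of 0.148.

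Fosl1 and Fosb were close to the lowest levels measured. Fosl1, which encodes Fra-1, a Fos family protein linked to epithelial migration, was at 0.521, 1.71, 1.77 and 1.43 CPM in Gent+Fos OE and at 0.342, 0.833 and 0.462 CPM in Gent. Gent+Fos OE replicate 1 lay inside the Gent range and the other 3 lay above it. These levels rest on 10 to 56 counts per library, and 57.2% of the exonic bases of Fosl1 are shared with Ccdc85b, and reads that hit both genes were not counted. The log2 fold change of 1.31 (SE 0.52) had an edgeR adjusted p of 0.167. Fosb, an inducible Fos relative, was at 1.5, 2.33, 2.09 and 1.03 CPM in Gent+Fos OE and at 3.63, 1.35 and 1.82 CPM in Gent. The groups overlapped, the log2 fold change was -0.37 (95% interval -1.27 to 0.52), and without Gent replicate 1, the highest library, its sign turned to 0.13. Fosb had 29 to 106 counts per library, and a change as large as that of Fos lies outside its interval.

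The Jun family, which supplies the partners that Fos needs, showed no called change. Jun, the classical partner of Fos, was at 112, 110, 104 and 109 CPM in Gent+Fos OE and at 117, 101 and 117 CPM in Gent. The groups overlapped, and the log2 fold change was -0.03 (95% interval -0.29 to 0.22, edgeR adjusted p of 0.877). A change of Jun as large as that of Fos lies outside this interval. Jund, the Jun gene that is expressed in most resting cells, was at 41.2, 42.5, 36.2 and 39.9 CPM in Gent+Fos OE and at 35.2, 48 and 42.1 CPM in Gent. Its log2 fold change was -0.06 (95% interval -0.37 to 0.24, edgeR adjusted p of 0.79), and the groups overlapped. The signs of Jun and Jund are not settled, since removing the length trend gave 0.08 and 0.19 on the log2 scale. Junb, a Jun protein that often acts as a weaker activator than Jun, was at 53.2, 59.8, 56.1 and 57.5 CPM in Gent+Fos OE and at 69.1, 89 and 62.8 CPM in Gent. All 4 Gent+Fos OE libraries were below the lowest Gent library. The log2 fold change of -0.38 (SE 0.14) had an edgeR adjusted p of 0.149, and it was -0.22 without Gent replicate 2 and -0.18 with the length trend removed. Parts of all 3 Jun family genes overlap another annotated gene, by 7.3% of exonic bases for Jun, 7.5% for Junb and 52.6% for Jund.

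Batf and Atf3 had lower values with added Fos, and whether they were called depended on the tool. Batf encodes a small AP-1 protein of immune cells that pairs with Jun proteins without an activation domain of its own. It was at 5.34, 2.2, 4.12 and 4.88 CPM in Gent+Fos OE and at 10.6, 13.4 and 8.58 CPM in Gent. Every Gent library was above every Gent+Fos OE library, and the mean was 2.63-fold higher in Gent. The log2 fold change was -1.39 (SE 0.28) with an edgeR adjusted p of 0.0382, which misses the limit of 0.01 and passes one of 0.05. At that looser limit 1 of the 10 AP-1 genes was lower, against 1.19% of tested genes. DESeq2, at the limit of 0.01, gave Batf an adjusted p of 0.000358. Leaving out single libraries gave log2 fold changes of -1.55 to -1.18 and edgeR adjusted p-values of 0.0333 to 0.13.

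Atf3, a stress-induced factor that often represses as a homodimer, was at 46.2, 44.7, 47.7 and 49.7 CPM in Gent+Fos OE and at 59, 71.3 and 67.3 CPM in Gent. The groups did not overlap. The log2 fold change was -0.49 (SE 0.12), with an adjusted p of 0.0656 by edgeR and 0.00557 by DESeq2. DESeq2 thus called 2 of the 10 AP-1 genes lower, Batf and Atf3, where it called 1.73% of the genes to which it gave an adjusted p. With the length trend removed the log2 fold change of Atf3 was -0.28 with an edgeR adjusted p of 0.142. Maff, a small Maf protein with no activation domain, was at 19.6, 30.9, 23.4 and 23.2 CPM in Gent+Fos OE and at 25.6, 29.5 and 22.3 CPM in Gent. Its groups overlapped, and the log2 fold change was -0.09 (95% interval -0.47 to 0.30), with the sign turned to 0.08 when the length trend was removed.

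**Figure D2:**
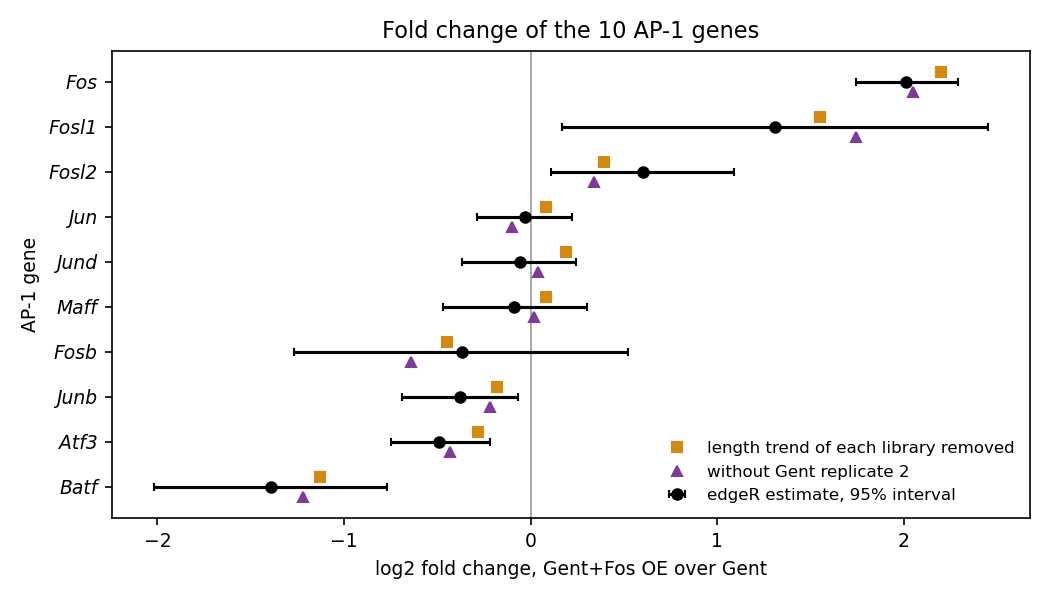
Log2 fold change of the 10 AP-1 genes, Gent+Fos OE over Gent; black points are edgeR estimates with 95% intervals, orange squares the estimates after the length trend of each library was removed, and purple triangles those without Gent replicate 2. Fos stands alone at 2.01, Batf is the lowest at -1.39, and the intervals of Jun, Jund, Maff and Fosb span 0.

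Markers of macrophages, the resident immune cells of the utricle, had lower values in the same libraries as Batf. All 12 macrophage markers listed had a negative log2 fold change (median -0.69), and 0 were called. Their summed level was 3088.4 to 4831.3 CPM in Gent+Fos OE and 5131.2 to 7304.1 CPM in Gent. Csf1r, the receptor that macrophages need to survive, averaged 134 CPM against 226 CPM, and the complement gene C1qa 144 CPM against 239 CPM. Per 1000 CPM of the 12 markers, Batf was at 1.3, 0.714, 1.19 and 1.01 in Gent+Fos OE and at 1.72, 1.83 and 1.67 in Gent. The groups did not overlap on this scale, with means of 1.05 ± 0.255 (SD, n = 4) and 1.74 ± 0.083 (SD, n = 3), a ratio chosen after the data were seen. The ratio does not show which cells held the Batf transcripts, and the part of macrophages in the level of Batf was not tested.

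**Figure D3:**
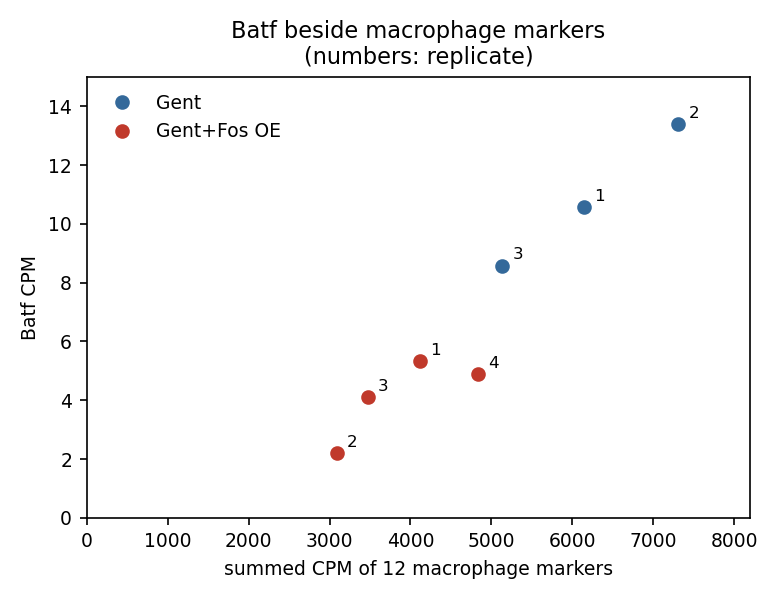
Batf level in CPM against the summed CPM of 12 macrophage markers in each of the 7 libraries, with the replicate number beside each point. The 3 Gent libraries lie highest on both axes, and Gent+Fos OE replicate 2 is lowest on both.

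Other cell type markers were measured in the same libraries. All 6 melanocyte markers had negative log2 fold changes, with sums of 45.7 to 50.9 CPM in Gent+Fos OE against 87.6 to 124 CPM in Gent, and the 2 pigment enzyme genes Tyrp1 (1.34 CPM against 4.87 CPM on average) and Dct (18.4 CPM against 48.4 CPM) were called. The summed supporting cell markers were at 1772.8 to 2724 CPM against 1165.4 to 1401.9 CPM, with Sox2 averaging 97.8 CPM against 92.7 CPM and Otog, the 1 marker called, 1064.9 CPM against 447 CPM. Hair cell markers were present in every library, at 668 to 856 CPM against 597 to 750 CPM, and these ranges overlapped, as did the levels of Myo7a and Otof. Of the 9 hair cell markers tested, 4 had higher and 5 lower values (median log2 fold change -0.17), and 0 were called. Lymphocyte markers, which bear on Batf too, summed to 12.6 to 31 CPM against 20.3 to 32.5 CPM, with Cd3e averaging 0.515 CPM against 0.231 CPM and Ncr1 at 0 in all 7 libraries. Only 2 of the 7 lymphocyte markers had enough counts to be tested, 1 with higher and 1 with lower values. The part of these cell types in the AP-1 levels was not tested.

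The order of the AP-1 genes differed between the groups when levels were compared per kb of exon length. In Gent, Jun led at 35 CPM per kb, followed by Junb at 32.0, Atf3 at 30.6, Jund at 25 and Fos at 16.3 CPM per kb. The ranges of Jun, Junb, Atf3 and Jund overlapped from each to the next, so their order in Gent is not settled, while Fos was below Jund in all 3 libraries. Maff at 9.94, Fosl2 at 8.98 and Batf at 7.72 CPM per kb came next and overlapped in the same way, and Fosb and Fosl1 were last at 0.363 and 0.269 CPM per kb.

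In Gent+Fos OE, Fos led at 65.6 CPM per kb, above Jun at 34.2 CPM per kb in all 4 libraries. Junb at 24.6, Jund at 24 and Atf3 at 21.8 CPM per kb overlapped from each to the next. Fosl2 at 13.6 CPM per kb now stood above Maff at 9.36 in all 4 libraries, and Batf followed at 2.94 CPM per kb. Fosl1 at 0.668 and Fosb at 0.278 CPM per kb were again the lowest. Jund is understated on this scale because so many of its exonic bases are shared. Scaled by unshared bases alone, Jund was at 50.5 CPM per kb in Gent+Fos OE and at 52.8 CPM per kb in Gent, where it would then be the highest of the 10.

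Fos made up a larger share of the AP-1 transcripts when it was supplied. As a percent of the summed CPM per kb of the 10 genes, Fos was 33.0%, 32.2%, 35.7% and 32.4% in Gent+Fos OE and 10.3%, 9.76% and 9.25% in Gent. The means were 33.3 ± 1.61% (SD, n = 4) and 9.78 ± 0.536% (SD, n = 3), a difference of 23.5 percentage points. The two-sided exact permutation test gave a p of 0.0286, the smallest that the 35 divisions of 7 libraries into 4 and 3 allow. This and 5 further summaries of the same libraries were tested, and each had that p, raw and after Benjamini-Hochberg adjustment. The share, the summed level of the 10 genes and the ratios below that include Fos all contain the delivered gene. Their p-values are thus not results separate from the higher Fos. Without length scaling the shares were 27.1% and 8.36%, and with unshared exonic bases alone 28.6% and 8.15%. The share also depends on which genes are summed. It was 40.3% and 13.8% among the 7 Fos and Jun family genes, and 15.5% and 4.09% when further bZIP partners were added to give 24 genes, a difference of 11.4 percentage points. The length of the viral insert is not given in the sources used here, so the scaling by the exons of the gene is approximate for Fos.

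The total of the 10 genes rose less than Fos did. The sum was 197 ± 2.12 CPM per kb with added Fos (SD, n = 4) and 166 ± 9.31 CPM per kb without (SD, n = 3), a 1.19-fold difference (exact permutation p of 0.0286). Without Fos, the other 9 genes summed to 131, 135, 128 and 132 CPM per kb in Gent+Fos OE and to 146, 159 and 144 CPM per kb in Gent, with no overlap. The difference was -0.19 on the log2 scale (exact permutation p of 0.0286), and -0.16 with unshared exonic bases alone. It was -0.01 without length scaling (exact permutation p of 0.886) and -0.03 with the length trend removed (exact permutation p of 0.486), so it depended on how gene length was treated.

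**Figure D4:**
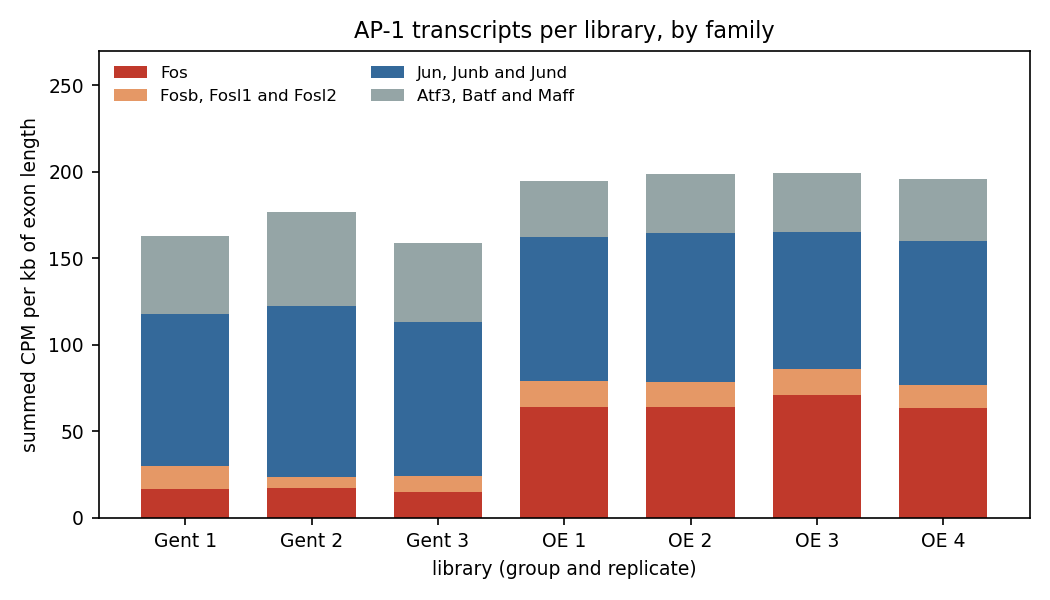
Summed level of the AP-1 genes in each library, in CPM per kb of exon length, stacked from Fos at the base through the other Fos family genes and the Jun family to Atf3, Batf and Maff. The bars of Gent+Fos OE (OE) reach 195 to 199 and those of Gent 159 to 177, and Fos fills 32.2% to 35.7% of the former and 9.25% to 10.3% of the latter.

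The balance between the Fos and Jun families shifted toward the Fos family at the transcript level. The ratio of Fos family to Jun family transcripts, per kb, was 0.952, 0.911, 1.1 and 0.924 in Gent+Fos OE and 0.343, 0.237 and 0.269 in Gent. The difference was 1.79 on the log2 scale, and the groups were apart. With unshared exonic bases alone it was 1.77, and without length scaling 1.35. The ratios themselves depend on how Jund is scaled, since its level per kb is understated here. The ratio of Fos to Jun alone was 1.82, 1.85, 2.17 and 1.85 in Gent+Fos OE and 0.458, 0.544 and 0.402 in Gent. Per kb, Jun transcripts thus outnumbered those of Fos in all 3 Gent libraries and were outnumbered in all 4 Gent+Fos OE libraries. With Fos left out, the ratio of Fosb, Fosl1 and Fosl2 to the Jun family was 0.176 ± 0.0137 (SD, n = 4) against 0.106 ± 0.0444 (SD, n = 3). That difference of 0.81 on the log2 scale (exact permutation p of 0.0286) rests mostly on Fosl2, and leaving out single libraries gave values between 0.48, when Gent replicate 2 was dropped, and 1.12, when Gent replicate 1 was dropped. Fosl2 has 9680 exonic bases and the Jun family genes 1668 to 3189, so the length trend bears on this ratio. With that trend removed the log2 fold changes were 0.39 for Fosl2, 0.08 for Jun, -0.18 for Junb and 0.19 for Jund. Before removal they were 0.60, -0.03, -0.38 and -0.06. The ratio itself was not computed with the trend removed. As shares of the AP-1 sum the Jun family went from 55.4 ± 1.23% (SD, n = 3) in Gent to 42.0 ± 1.67% (SD, n = 4), and Atf3, Batf and Maff together from 29.0 ± 1.52% to 17.3 ± 0.568%. Shares add up to the whole, so a larger Fos share lowers the others by construction.

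The genes whose pattern over the 7 libraries lay nearest to that of Fos were not AP-1 genes. The measure was the root mean square difference of mean-centred log2 CPM, over the 14837 tested genes whose mean reached 1 CPM. The nearest was Irf4, an interferon regulatory factor of immune cells, with a difference of 0.224 and levels of 7.52, 10.6, 9.31 and 8.7 CPM in Gent+Fos OE against 1.75, 2.72 and 2.28 CPM in Gent. Vtcn1, an immune checkpoint ligand, followed at 0.265, then Ciita, the master activator of MHC class II genes, at 0.273, then Scel, a cornified envelope gene, at 0.29, and Flt1, a VEGF receptor, at 0.291. Log2 fold changes of the genes named were 1.67 to 2.29, and the measure favours a change like that of Fos (2.01). Nearness is thus no test of shared regulation. Ciita, Scel and Flt1 were at 0.318 to 3.31 CPM. Scel and Flt1 were not called (edgeR adjusted p of 0.038 and 0.0281). Ciita (edgeR adjusted p of 0.00981) lost its call when any single library was left out, and Irf4 and Vtcn1 theirs for some libraries. Among the AP-1 genes Fosl1 came closest at 0.71, in place 428, then Fosl2 at 0.744 in place 644 and Jun at 1.021 in place 7377. Batf was among the farthest of all, at 1.747 in place 14753.

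Further bZIP genes that can pair with AP-1 proteins had values in both directions. Of 15 listed, 13 were tested and 0 called, where 0.134% of all tested genes were called higher and 0.28% lower, with 7 higher and 6 lower values and a median log2 fold change of 0.01. Without adjustment, p was under 0.05 for 2 in each direction, beside 11.1% higher and 13.4% lower over all tested genes, and DESeq2 called 0 as well. Mafk, a small Maf protein, was at 28.4 to 34.3 CPM in Gent+Fos OE and 23.1 to 26.3 CPM in Gent, with a log2 fold change of 0.42 and an edgeR adjusted p of 0.114. Atf7, an ATF protein activated by stress kinases, had 0.45 (edgeR adjusted p of 0.161), and 0.27 without Gent replicate 2. The relatives of Batf had values on the same side as Batf, with log2 fold changes of -1.09 for Batf2 (edgeR adjusted p of 0.169) and -0.55 for Batf3 (edgeR adjusted p of 0.319), though Batf3 was at -0.16 without Gent replicate 2. Batf2 was near the lowest levels measured, at 0.306 to 1.01 CPM in Gent+Fos OE and 1.13 to 1.67 CPM in Gent.

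The kinases and factors that switch on Fos and Jun also had values in both directions. Of these 28 genes, all tested, 0 were called, beside the same 0.134% and 0.28% of all genes. The list had 16 higher and 12 lower values, a median log2 fold change of 0.05 and 0 calls by DESeq2. Without adjustment, p was under 0.05 for 1 higher and 0 lower, beside 11.1% and 13.4% of all tested genes. Map3k1, a kinase upstream of JNK, had 0.48 (edgeR adjusted p of 0.187), and Map2k6, which activates p38, had 0.41 (edgeR adjusted p of 0.231). Mapk11, a p38 kinase, had -0.55 (edgeR adjusted p of 0.224), and Mapk3, which encodes ERK1, had -0.30 (edgeR adjusted p of 0.217). Without Gent replicate 2 these values were 0.25 for Map3k1, -0.35 for Mapk11 and -0.13 for Mapk3.

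MAP kinase phosphatases, which damp the same kinases and are themselves induced by them, had 6 higher and 4 lower values among 10. Their median log2 fold change was 0.21, and 0 were called by edgeR or DESeq2. Without adjustment, p was under 0.05 for 4 higher and 1 lower, beside the 11.1% and 13.4% of all tested genes. Dusp5, a nuclear ERK phosphatase, was at 29, 61.5, 38.6 and 32.7 CPM in Gent+Fos OE and at 23.4, 20.3 and 22.4 CPM in Gent. All 4 libraries were above Gent, with a log2 fold change of 0.88 and an edgeR adjusted p of 0.0859. Dusp9, a cytoplasmic ERK phosphatase, had 0.77 (edgeR adjusted p of 0.165) and Dusp2, an immune cell phosphatase, -1.04 (edgeR adjusted p of 0.113). Dusp6, the classical ERK feedback gene, had -0.08 (edgeR adjusted p of 0.809).

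Textbook AP-1 target genes went in both directions. Of 24 listed and tested, 12 had higher and 12 lower values (median log2 fold change -0.10), and the 2 that were called, Mmp13 and Il1b, were lower, where 0.28% of all tested genes were. Without adjustment, p was under 0.05 for 5 higher and 10 lower, beside 11.1% and 13.4% of all tested genes, and the groups were apart for 5 and 9, beside 11.3% and 12.2%. Mmp13, a collagenase gene with a well studied AP-1 site in its promoter, was at 3.52, 2.11, 3.64 and 2.89 CPM in Gent+Fos OE and at 12.1, 8.91 and 15.2 CPM in Gent. The Gent libraries were all higher, with a log2 fold change of -1.99 (SE 0.24, edgeR adjusted p of 0.00368). Il1b, an inflammatory cytokine made largely by macrophages, was at 1.89, 1.84, 1.77 and 1.82 CPM in Gent+Fos OE and at 5.07, 7.6 and 6.59 CPM in Gent. Its log2 fold change was -1.81 (SE 0.22, edgeR adjusted p of 0.00316), beside the lower macrophage markers given above. Both calls were lost when any single Gent+Fos OE library or Gent replicate 3 was left out, with edgeR adjusted p-values up to 0.0212 for Mmp13 and 0.0211 for Il1b.

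On the higher side, Sprr1a, an epithelial and nerve injury gene, was at 41.8, 41.7, 34.5 and 29.7 CPM in Gent+Fos OE and at 14.1, 22.9 and 5.49 CPM in Gent. Every Gent+Fos OE library was above Gent. Sprr1a had a log2 fold change of 1.39 with an edgeR adjusted p of 0.0837, and it was called without Gent replicate 2. Of the 24 targets, DESeq2 called 2 higher, Sprr1a among them, and 5 lower, where it called 1.44% of all genes with an adjusted p higher and 1.73% lower. The lower calls added the metalloproteinase genes Mmp3 and Mmp9 and the cytokine Il6 to Mmp13 and Il1b.

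Other immediate early genes had values in both directions. Of 25 listed, 24 were tested, 9 with higher and 15 with lower values, a median log2 fold change of -0.11 and 0 called by edgeR. Without adjustment, p was under 0.05 for 2 higher and 6 lower, beside the same shares of all tested genes. Sgk1, a kinase induced by serum and glucocorticoids, was at 145, 139, 159 and 132 CPM in Gent+Fos OE and at 90, 72 and 97.5 CPM in Gent. The groups were apart, with a log2 fold change of 0.73 and an adjusted p of 0.0297 by edgeR and 0.000101 by DESeq2, the only gene of the list that DESeq2 called, where it called 1.44% of all genes higher. Klf4, a factor of epithelial barriers, had 0.58 (edgeR adjusted p of 0.104). Arc, best known from neurons, had -0.84 (edgeR adjusted p of 0.131), and -0.38 without Gent replicate 2, its highest library. Klf2, a factor of endothelium and resting lymphocytes, had -0.51 (edgeR adjusted p of 0.196).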

How the data were processed

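RNA-seq counts of 7 libraries were used, 4 Gent+Fos OE and 3 Gent, grouped by their labels. The study's methods state 3 replicates per condition. Per the file headers, the authors made the deposited counts with featureCounts 2.0.6, as whole reads per gene on exons of an mm10 annotation, without strand, with the 2 reads of a pair counted separately, and without reads that map to several places or hit several genes. The submitters' processing notes also name Trim Galore 0.6.10, HISAT2 2.2.1 and DESeq2 1.34.0, while the methods name mm39. Library totals were 27879889 to 34335214 counts (median 31313523). Exon lengths are the deposited length values of the same files. Reads from a gene and an antisense partner cannot be told apart in these counts.

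Symbols were given to 24643 genes by GENCODE vM39 and RefSeq. Genes kept by filterByExpr were TMM-normalized and tested with edgeR 4.0.16 (quasi-likelihood F-test, no covariate) in R 4.3.3, with Benjamini-Hochberg adjustment over 17155 genes, and called below an adjusted p of 0.01 where the log2 fold change exceeded 0.25 in size. CPM is on the TMM scale, and CPM per kb divides it by exon length. Sums, shares and ratios were compared by the two-sided exact permutation test over 35 divisions. Alternatives were DESeq2 1.42.0 (total of at least 10 counts), limma-voom (limma 3.58.1), RLE, upper quartile and no normalization beyond totals, no filter, a length trend removed per library (loess span 0.3), a replicate block, an adjusted p under 0.05, and each library left out. Scaling by unshared exonic bases, and the lists without Gent replicate 2, were chosen after seeing the data. Figures used matplotlib 3.10.9, and the fits were tested on simulated data.

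Named genes are the 10 AP-1 genes and the 5 genes nearest to Fos. Each of 5 lists adds its called genes and the 2 highest and 2 lowest log2 fold changes among genes with a group mean of at least 1 CPM, and the marker lists described gene by gene their first 2 genes. Dusp6, genes called by DESeq2 alone, and a marker listed at 0 are named as well, some of them after their values were seen. Results of some of the genes in these lists are not reported here. Members and lists were chosen with earlier results of these data known. Replicate numbers do not pair the libraries, since same-numbered libraries did not deviate together. Ddit3, whose symbol belongs to 2 identifiers, was not used, and Nrl and Egr4 had too few counts to be tested. Of 10 marker lists, those of neuron, glia, endothelium, mesenchyme and neutrophil had summed ranges that overlapped between the groups.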

Additional observations from a re-analysis of the deposited data

Results flagged for a closer look

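In Gent+Fos OE, replicate 3 stood apart from the other 3 libraries in Fos, at 167 CPM against 149 to 151 CPM. It also stood apart in the ratio of Fos to Jun, at 1.12 on the log2 scale against 0.87 to 0.89. Both values are high by Dixon's test for 4 samples at the 95% level. They share the same Fos counts, and 36 groups of 4 values were examined, of which chance marks about 1 in 20. Without this library the log2 fold change of Fos was 1.97.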

How the results depend on the processing

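Fos was called higher in all of the 16 alternative fits but the replicate block, where its log2 fold change was 2.03 with an edgeR adjusted p of 0.0296 and 0 members were called. Same-numbered libraries correlated at 0.064, -0.038 and 0.032, so the block has no basis in the data. Under it 0 genes were called higher and 0 lower, and with the length trend removed as well 18 were higher and 21 lower. The counts over all genes moved in other ways too. DESeq2 called 273 higher and 327 lower, no filter gave 63 and 141, an adjusted p under 0.05 gave 114 and 205, and removing the length trend gave 37 higher. Leaving out single libraries gave 2 to 45 higher and 3 to 93 lower, with fewest without Gent+Fos OE replicate 3 and most without Gent replicate 2. AP-1 genes called lower numbered 2 by DESeq2 (Atf3, Batf), 1 without a filter (Batf) and 1 at an adjusted p under 0.05 (Batf). With the length trend removed, without and with the block, signs turned for Jun (0.08, 0.09), Jund (0.19, 0.21) and Maff (0.08, 0.09). Leaving out single libraries gave -0.64 to 0.13 for Fosb, -0.1 to 0.00 for Jun, -0.17 to 0.04 for Jund and -0.23 to 0.02 for Maff, none past the threshold. The lower sum without Fos went to -0.01 and -0.03. AP-1 targets called higher were 2 by DESeq2 and 1 without Gent replicate 2, those called lower 5 by DESeq2, and 1 other immediate early gene was called higher by DESeq2. In all, 279 of 326 alternatives kept direction and side of the threshold, or a count within 1.5 times. The causes were not tested. Fosb and Fosl1 rest on 10 to 106 counts per library.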
